A study of Mus musculus with 4 samples.

Results

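The genes described here encode the mouse proteasome. They were taken by symbol from the table of genes, as every symbol that begins with Psm, a letter from a to g and a digit. This gave 49 of 22667 genes, and 46 of them had at least 75 reads summed over the 4 libraries, as did 12497 genes in all. Of the 3 members that did not, Psma8, a form of an alpha subunit known from testis, was listed with 0 reads in every library. Psmb11, the thymus form of a catalytic subunit, had 15 and 16 reads with siControl against 8 and 16 with siArglu1, and Psme2b had 1 read, in siControl Veh. Here and in what follows, the first of the values for each siRNA is vehicle and the second Dex. Psmc3ip matched by name only, since it encodes a recombination cofactor named for its binding to Psmc3. Psmb9 was found in the tables of splicing alone, and its level in reads on the gene was not analysed here.

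The cells were N2a, a mouse neuroblastoma line. They carried for 48 h either a control siRNA without a target (siControl) or one against Arglu1 (siArglu1), which encodes a nuclear protein rich in arginine and glutamate. For 4 h they received vehicle (Veh, ethanol) or the synthetic glucocorticoid dexamethasone (Dex) at 100 nM. Each of the 4 groups is 1 library made from the pooled RNA of 3 cultures, so no comparison has replicates and no test was possible within a pair. Differences are therefore given by size, as log2 ratios of CPM, which are reads scaled to the size of the library with the TMM factors of edgeR, with 95% intervals that cover counting error only. A gene was called higher or lower at 0.81 or more on the log2 scale for knockdown and at 1 or more for Dex.

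The proteasome is the protease that degrades proteins tagged with ubiquitin. Its barrel-shaped core particle, 20S, is built of rings of alpha and beta subunits, and some of the beta subunits cut peptide bonds inside the barrel. The regulatory particle, 19S, caps the barrel: its base holds a ring of ATPases that unfold the substrate, and its lid takes off the ubiquitin chain. Interferon-inducible beta subunits can replace the constitutive catalytic ones to form the immunoproteasome, which supplies peptides for antigen presentation. Other caps (the activators), an inhibitor and dedicated assembly chaperones complete the set.

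Reads on genes ranged from 66074574 to 86541444 per library. Arglu1 itself had 10165 reads and 11825 with siControl, against 2637 and 3254 with siArglu1, and its knockdown log2 ratio was -1.91 with vehicle and -2.13 with Dex. Where a sentence gives a pair of knockdown ratios, vehicle comes before Dex. All 10 markers of sympathetic neuroblast origin were among the genes compared, from Stmn2 at a cRPKM of 223.07 to Th at 2.58 in siControl Veh. With knockdown 3 of them were called higher and 2 lower in each pair, among them Dbh at 2.02 and Th at -1.24 in vehicle. Over all genes compared, 7.27% were called higher and 8.39% lower in vehicle, and 6.56% and 5.69% in Dex. Of the 9 markers of other cell types, 5 had under 75 reads in all, and Ptprc, Epcam and Krt18 among these had 2 reads or fewer in every library. The other 4, Pecam1, Mbp, Krt8 and Cd68, had 26 to 204 reads per library and a cRPKM of at most 1.18, and all lay below 0 with knockdown in both pairs. Pecam1, an endothelial marker, was called lower, with -1.06 in each. The part of these markers in the results was not tested. In bulk RNA, fewer cells that express a gene and less of its RNA per cell cannot be told apart.

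Knockdown of Arglu1 went with a 3.09-fold rise of Psmb7, a smaller rise of Psmb2, and a fall of Psmb8 to 27.3% of its siControl level in vehicle, while most other members moved little. In the vehicle pair, 2 of the 46 members were called higher, Psmb2 and Psmb7, and 1 was called lower, Psmb8. Over all genes compared, 7.27% were called higher and 8.39% lower in this pair, which the counts of 2 and 1 among the members did not exceed. In the Dex pair, which shares no library with the vehicle pair, Psmb7 was again called higher and Psmb8 lower, 1 of 46 members each, where 6.56% of all genes were called higher and 5.69% lower.

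**Figure D1:**
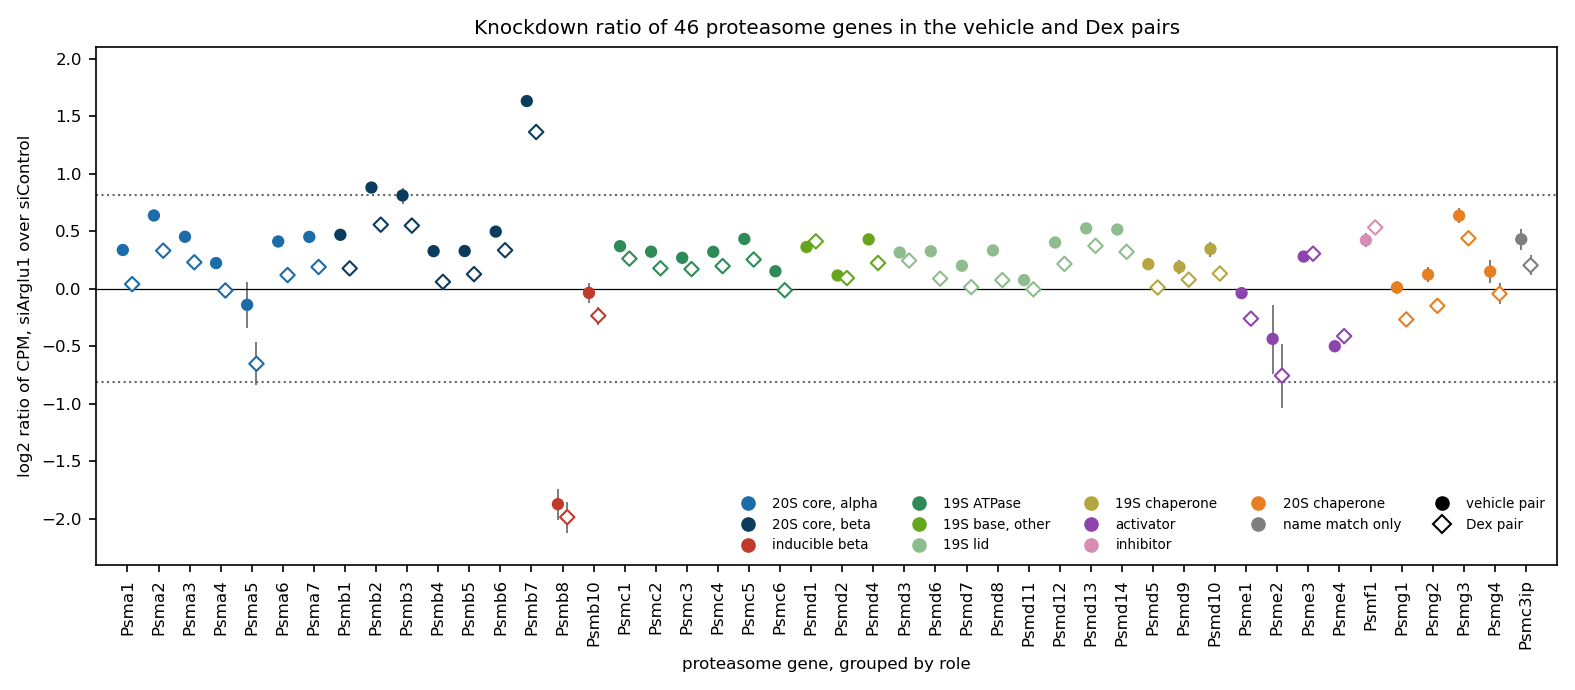
Log2 ratio of CPM, siArglu1 over siControl (vertical axis), for the 46 members with at least 75 reads, grouped by role (horizontal axis and colour). Filled circles are the vehicle pair and open diamonds the Dex pair; bars are 95% counting intervals, often smaller than the symbol, and dotted lines mark 0.81 and -0.81. Psmb7 lies at 1.63 and 1.36 and Psmb8 at -1.88 and -1.99, apart from the other members.

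Psmb7 encodes the constitutive catalytic beta subunit with trypsin-like activity. Its cRPKM, the authors' RPKM corrected for mappability, was 177.74 and 180.29 with siControl against 530.99 and 459.55 with siArglu1. Both siArglu1 libraries thus lay above both siControl libraries, and in them Psmb7 went from below the median level per length of the 20S core to the highest. The log2 ratio was 1.63 in vehicle, with an interval of 1.60 to 1.66, and 1.36 in Dex, with 1.33 to 1.39.

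The gene lies on the minus strand at chr2:38588036-38644087 (GRCm38, GENCODE M21) and overlaps the end of Nek6, a kinase gene on the plus strand at chr2:38511643-38594606. Nek6 had log2 ratios of 0.93 in vehicle and 0.83 in Dex, and the TruSeq V2 kit used for the libraries does not mark strand, so reads in the overlap cannot be assigned to either gene. Reads that span Psmb7's own splice junctions do not have this limit. Over its 3 alternative splice site events they numbered 4470 and 4949 with siControl against 13498 and 15406 with siArglu1, and their log2 ratios, scaled to all such reads, were 1.67 and 1.40. Nr6a1, a nuclear receptor gene within 100 kb on the other side, had log2 ratios of 0.88 and 1.02.

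Psmb2, a beta subunit without catalytic activity, was the other member called higher. Its cRPKM was 148.11 and 153.69 with siControl against 262.76 and 223.96 with siArglu1. Again the siArglu1 libraries lay above the siControl libraries, and the log2 ratios were 0.88 (0.84 to 0.92) and, under the threshold, 0.56 (0.52 to 0.59). Junction reads gave 0.95 and 0.63. With the trend of the ratios on mappable length removed, described below, the vehicle value was 0.53 and under the threshold. Psmb3, another non-catalytic beta subunit, was just outside it: its cRPKM was 213.41 and 219.03 with siControl against 360.81 and 317.46 with siArglu1, and its vehicle log2 ratio was 0.809 (0.739 to 0.878). Junction reads, 47 and 57 with siControl against 125 and 109 with siArglu1, gave 1.48 in vehicle, past the threshold, and 0.70 in Dex. With the trend on length removed its vehicle value was 0.53. It was named after its value was seen, and its level rests on only 188 mappable bases.

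The catalytic subunits that have an inducible partner were set beside these partners. Psmb8, the interferon-inducible counterpart of Psmb5, had a cRPKM of 26.32 and 24.05 with siControl against 6.92 and 6.0 with siArglu1. Its reads were 2042, 2011, 541 and 610 in the same order, and the siArglu1 libraries lay below the siControl libraries without overlap. The log2 ratio was -1.88 (-2.02 to -1.74) in vehicle and -1.99 (-2.12 to -1.86) in Dex. Psmb5, the constitutive subunit with chymotrypsin-like activity, had a cRPKM of 341.35 and 342.36 with siControl against 412.88 and 370.37 with siArglu1, with log2 ratios of 0.33 and 0.12. Of the summed cRPKM of this pair of paralogs, Psmb8 held 7.16% (interval 6.86 to 7.47%) and 6.56% with siControl, against 1.65% (1.51 to 1.79%) and 1.59% with siArglu1. The inducible form was thus the minor one in every library, and its share was smaller in both siArglu1 libraries.

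**Figure D2:**
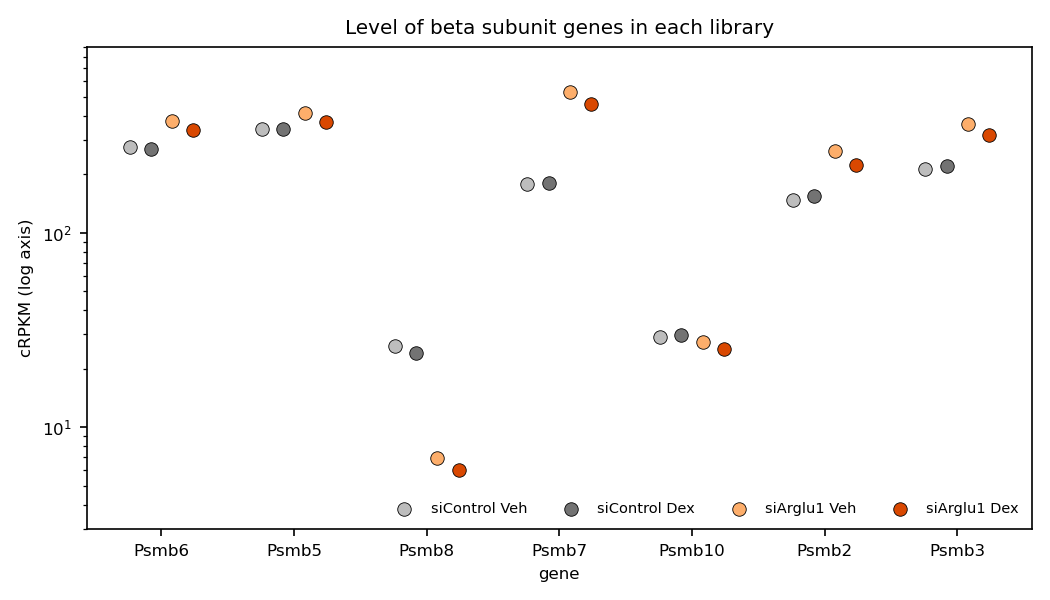
cRPKM (log axis) of 7 beta subunit genes, 1 point per library, with siControl in grey and siArglu1 in orange. Psmb7, Psmb2 and Psmb3 are higher and Psmb8 is lower in both siArglu1 libraries, while Psmb10 stays between 25.14 and 29.87.

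Psmb10, the inducible counterpart of Psmb7, had a cRPKM of 29.14 and 29.87 with siControl against 27.40 and 25.14 with siArglu1. Its log2 ratio was -0.04 in vehicle, where the interval of -0.12 to 0.05 spans 0, and -0.24 (-0.32 to -0.16) in Dex. Junction reads turned the sign, with 1349 and 1411 with siControl against 1516 and 1809 with siArglu1 and log2 ratios of 0.24 and 0.13, so its direction depended on the readout. Its share of the summed cRPKM of Psmb7 and Psmb10 was 14.1% and 14.2% with siControl, against 4.91% and 5.19% with siArglu1, a difference that came with the higher level of Psmb7. Psmb6, the constitutive subunit with caspase-like activity, had a cRPKM of 274.28 and 268.66 with siControl against 373.20 and 335.62 with siArglu1, with log2 ratios of 0.50 and 0.33. Its inducible partner Psmb9 was read at splice junctions only. An exon of 142 bases was scored SOK (100 junction reads or more) and OK (40 to 99) with siControl against OK and LOW (20 to 39) with siArglu1, and one of 68 bases OK and OK against VLOW (10 to 19) and LOW. Over its 2 splice site events, reads on all junctions summed to 7 and 8 against 2 and 0. The classes of reads were read off the splice site tables, and whether they hold for exons was not tested. These reads are not scaled to library size, and no ratio was formed from them. Psma7, the alpha subunit whose testis form is Psma8, had a cRPKM of 365.85 and 371.57 with siControl against 482.18 and 419.61 with siArglu1.

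Psmb8 lies at chr17:34197721-34201454 (GRCm38) between Tap1 and Tap2, which encode the transporter that carries the cut peptides into the endoplasmic reticulum. Tap1 had log2 ratios of -1.41 in vehicle and -1.09 in Dex, and Tap2 of -1.21 and -1.24. In a list of antigen presentation genes, 4 of the 11 compared were called lower in each pair, the others being Tapbp, which tethers class I molecules to the transporter (-1.14 and -0.98), and Erap1, which trims the peptides (-2.1 and -1.96). None of the 11 was called higher. Over all genes compared, 8.39% were called lower in vehicle and 5.69% in Dex. The class I heavy chain H2-K1 had -0.29 and -0.46, and B2m, its light chain, 0.16 and 0.00. The list's median was -0.51 in vehicle and -0.46 in Dex, beside 0.02 over all genes in both pairs.

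The promoters of Psmb8 and Psmb5 are shown because these paralogs, which fill the same place in the ring, had log2 ratios of opposite sign as measured. With the trend on length removed, described below, Psmb5 had -0.02 in vehicle and -0.05 in Dex. Its sign was then that of Psmb8, which had -2.15 in both pairs. They are RefSeq's 300 bases from 250 before the annotated start (GRCm38.p6), with matches to any of 5 motifs in capitals. Psmb8 is read on the plus strand at chr17:34197945-34198244 and Psmb5 on the minus strand at chr14:54617946-54618245.
Psmb8: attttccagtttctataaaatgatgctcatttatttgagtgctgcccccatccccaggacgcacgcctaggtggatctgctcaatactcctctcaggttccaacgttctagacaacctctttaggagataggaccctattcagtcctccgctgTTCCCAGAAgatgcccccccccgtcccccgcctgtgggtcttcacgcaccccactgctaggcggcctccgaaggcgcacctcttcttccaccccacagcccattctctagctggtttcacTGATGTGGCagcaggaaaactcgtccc
Psmb5: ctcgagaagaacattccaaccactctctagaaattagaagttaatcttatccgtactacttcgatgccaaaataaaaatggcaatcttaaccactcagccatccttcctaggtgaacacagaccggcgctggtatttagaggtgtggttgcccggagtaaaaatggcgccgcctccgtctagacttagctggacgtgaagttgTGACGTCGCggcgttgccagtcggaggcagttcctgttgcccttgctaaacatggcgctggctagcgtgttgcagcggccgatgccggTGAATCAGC

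The motifs, searched on both strands, were the antioxidant response core TGANNNNGC, the CCAAT box, the interferon-stimulated response core, the STAT-type core TTCNNNGAA and the ETS-type core GGAAGT. The Psmb8 window holds a STAT-type match and an antioxidant response match, and the Psmb5 window holds 2 antioxidant response matches. The STAT-type pattern, though not the matched bases, reads the same on both strands. The interferon-stimulated letters are not in either window. The Psmb8 window lies wholly inside the gene as GENCODE M21 places it, chr17:34197721-34201454. The bases before that start were thus not searched. Of the first listed promoters of 27025 symbols, 8.47% hold the STAT-type core, 41.4% the antioxidant response core and 3.49% the interferon-stimulated core. Of the 41 members with a promoter in the table, 3, 22 and 5 hold them. The antioxidant response core was in 8 of 11 promoters of the 20S core and 5 of 14 of the 19S particle, the ETS-type core in 4 and 9 of these and in 24.1% of all promoters, and CCAAT in 6 and 4 of these and in 37.9% of all. Psmb2 and Psmb7 have no entry.

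In the constitutive 20S core, 13 of the 14 genes with at least 75 reads lay above 0 in vehicle and 12 of 14 in Dex. Of all genes compared, 51.5% lay above 0 in vehicle and 52.1% in Dex. The median log2 ratio was 0.45 in vehicle and 0.18 in Dex, beside 0.02 over all genes. The 7 alpha genes ranged from -0.14 to 0.64 and the 7 beta genes from 0.32 to 1.63 in vehicle. The lowest was Psma5, an alpha subunit, with 446 reads and 550 with siControl against 393 and 421 with siArglu1 on 305 mappable bases. Its log2 ratio was -0.14 (-0.34 to 0.06) in vehicle and -0.65 (-0.84 to -0.47) in Dex, so its direction is not fixed by the reads of the vehicle pair. Psmb7 was the highest.

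In the 19S particle, all 17 genes had a log2 ratio above 0 in the vehicle pair, between 0.07 and 0.52, and 15 of 17 in the Dex pair. The median was 0.32 and 0.20, and none of the 17 was called in either direction in either pair. The 19S genes lay closer together than the core genes, with an SD across genes of 0.13 in vehicle against 0.40 in the core. Within the base, Psmc5, an ATPase, was highest in vehicle as measured, with a cRPKM of 209.49 and 212.10 with siControl against 272.57 and 250.55 with siArglu1 and a log2 ratio of 0.43. Psmd2, a scaffold that receives shuttle factors, was lowest, with 213.67, 213.62, 223.04 and 225.68 in the same order and a log2 ratio of 0.11 (0.09 to 0.13). Junction reads of Psmd2 gave -0.27 in vehicle, so its sign depended on the readout. Those of Psmc5 gave 0.16 in vehicle and 0.08 in Dex. With the trend on length removed, described below, Psmd1 was highest of the base in vehicle with 0.38, against 0.17 for Psmc5. Psmc6 was then lowest with 0.03, against 0.11 for Psmd2. Psmd1 and Psmc6 are outside the rule for named genes and were added after their values were seen.

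Within the lid, Psmd13 was highest, with a cRPKM of 101.64 and 100.19 with siControl against 140.95 and 128.55 with siArglu1 and log2 ratios of 0.52 and 0.37. Psmd14, the enzyme that removes the ubiquitin chain, was next to it with 0.51 and 0.32. Psmd11 was lowest, with a cRPKM between 54.11 and 55.44 in the 4 libraries and log2 ratios of 0.07 (0.03 to 0.11) and -0.01 (-0.04 to 0.03). The 3 chaperones of the base, Psmd5, Psmd9 and Psmd10, had log2 ratios between 0.19 and 0.34 in vehicle and between 0.01 and 0.13 in Dex.

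The activators were mixed: of the 4 compared, 1 lay above 0 and 3 below 0 in each pair. Psme4, a large nuclear cap that opens the core without ATP, had the lowest log2 ratio of the 4 in vehicle, with a cRPKM of 42.96 and 42.34 with siControl against 29.28 and 31.53 with siArglu1. Its log2 ratio was -0.50 (-0.53 to -0.47) in vehicle and -0.41 (-0.44 to -0.38) in Dex, and its junction reads gave -0.66 and -0.46. With the trend on length removed, described below, it had -0.16 and -0.26, and Psme1 and Psme2 were then lower, with -0.39 and -0.70 in vehicle. In Dex they then had -0.44 and -0.84, the value of Psme2 past the threshold. Psme3, a nuclear activator, was the highest, with a cRPKM of 101.09 and 102.81 with siControl against 118.30 and 125.83 with siArglu1 and log2 ratios of 0.28 and 0.30. Psme1 and Psme2, which form the interferon-inducible cap, had -0.04 (-0.09 to 0.01) and -0.44 (-0.74 to -0.14) in vehicle and -0.26 and -0.76 in Dex, and Psme2 rests on 162 to 263 reads per library. Psmf1, the inhibitor, had 0.42 and 0.53. As measured, none of these 5 was called. Psme1, Psme2 and Psmf1 are outside the rule for named genes and were added after their values were seen.

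Of the chaperones that assemble the alpha ring, Psmg3 had the highest log2 ratio, with a cRPKM of 61.90 and 62.40 with siControl against 92.69 and 83.78 with siArglu1. The ratios were 0.63 (0.57 to 0.70) and 0.44 (0.38 to 0.50). Psmg1 had the lowest, with 79.25, 79.93, 76.97 and 65.82 in the same order and ratios of 0.01 (-0.05 to 0.06) and -0.27 (-0.32 to -0.21). Pomp, the maturation factor that holds half-built cores together, was the single gene called higher among 10 partners of the proteasome without a Psm symbol, with 7280 reads and 8036 with siControl against 13361 and 15112 with siArglu1. Its log2 ratio was 0.92 in vehicle, where 7.27% of all genes were called higher, and, under the threshold, 0.64 in Dex. With the trend on length removed, described below, Pomp had 0.55 and 0.46, both under the threshold. Zfand5, which binds the 19S particle, had the lowest ratio of the 10, -0.62 and -0.71.

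As measured, the genes that control proteasome transcription did not show the direction of the subunits. All 8 of the list had log2 ratios below 0 in vehicle, between -0.53 and -0.04, and 7 of 8 in Dex, with none called. Nfe2l1, the transcription factor that raises subunit genes when the proteasome is inhibited, had -0.20 in vehicle and -0.06 in Dex, and Keap1, which restrains the related Nfe2l2, had -0.53 and -0.50. With the trend on length removed, 7 of 8 lay below 0 in vehicle and 5 of 8 in Dex. Keap1 then had -0.35 and -0.43, Nfe2l1 -0.002 and 0.023, and Ddi2, the protease that activates Nfe2l1, 0.31 and 0.14 in place of -0.11 and -0.06. Of 14 ubiquitin genes and shuttles compared, 6 lay above 0 in vehicle and 7 in Dex, with medians of -0.06 in both, and none was called.

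The ratios moved with mappable length across all genes, and the median of the proteasome genes was below that of all genes. This length is corrected for mappability and is not the length of the transcript. Mappable length, as reads and cRPKM imply it, had a median of 1275 bases in the 46 members and 2708 over all genes with a known length. Spearman's rho of the log2 ratio and mappable length was -0.398 for knockdown in vehicle and -0.229 for that in Dex, across 12484 genes, which share the same libraries and are not independent replicates. After a lowess of the ratio on length was subtracted, the median of the 20S core was 0.13 in vehicle, down from 0.45, and 0.01 in Dex, down from 0.18, and that of the 19S particle was 0.13 and 0.07. Above 0 were then 11 of 14 core genes and 16 of 17 genes of the 19S particle in vehicle, and 8 and 12 in Dex. Psmb7 kept 1.34 and 1.20 and Psmb8 -2.15 and -2.15. The 79 ribosomal protein genes had medians of 0.29 and 0.03 as measured and -0.01 and -0.09 with the trend removed.

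**Figure D3:**
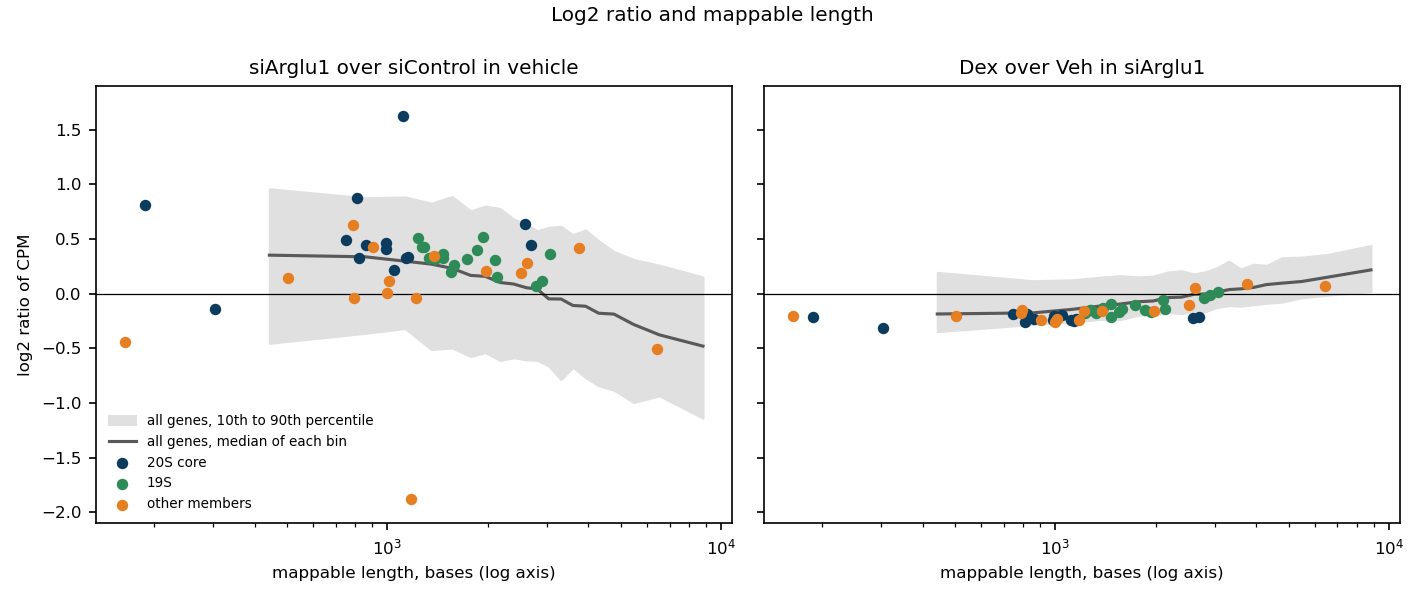
Log2 ratio of CPM (vertical axis) against mappable length in bases (log axis), for knockdown in vehicle (left) and for Dex in siArglu1 (right). The line and band are the median and the 10th to 90th percentile of all genes in 20 bins of length, and points are the members; most core and 19S genes lie near the line, and Psmb7 and Psmb8 lie outside the band on the left.

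Dex changed no member by 2-fold. In siControl cells, 0 of 46 members were called, where 0.32% of all genes were called higher and 0.144% lower, and in siArglu1 cells 0 of 46, where the shares were 0.328% and 0.064%. The members' log2 ratios for Dex lay between -0.12 and 0.20 with siControl and between -0.31 and 0.09 with siArglu1. The median of the 20S core was 0.04 in siControl, with 13 of 14 genes above 0, and -0.23 in siArglu1, with all 14 below 0. That of the 19S particle was 0.02, with 13 of 17 above 0, and -0.14, with 16 of 17 below 0. Of all genes compared, 48.0% lay above 0 for Dex in siControl and 50.1% in siArglu1. The counting interval lay above 0 in siControl and below 0 in siArglu1 for 14 of 46 members, beside 5.43% of all genes and 51 of the 79 ribosomal protein genes. The pairs share no library, and with 1 library each the difference between them was not tested. The trend on length was opposite too, with a rho of -0.163 in siControl and 0.543 in siArglu1, and with it removed the core medians were 0.02 and -0.09 and those of the 19S particle 0.01 and -0.04. The part of length in the difference was not tested further.

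**Figure D4:**
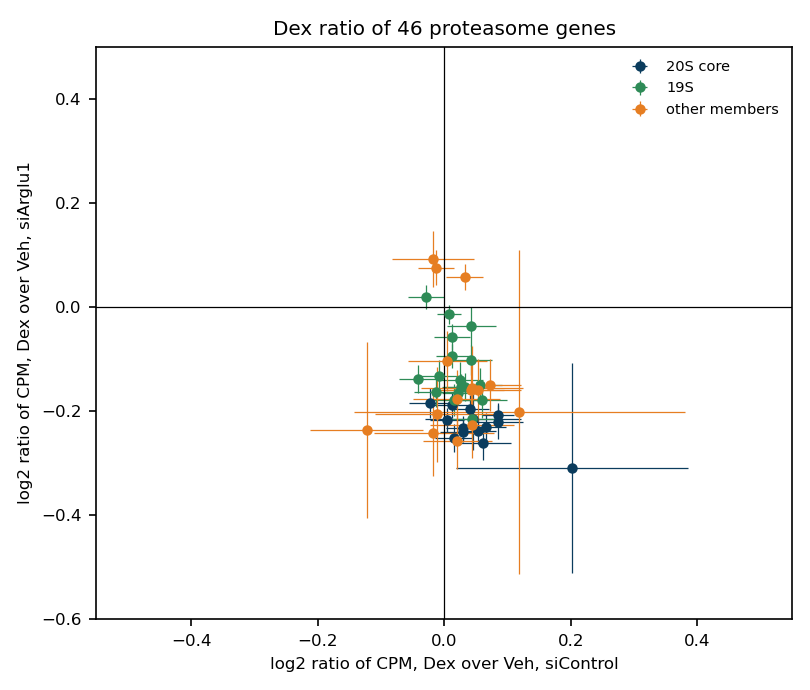
Log2 ratio of CPM, Dex over Veh, in siControl (horizontal axis) and siArglu1 (vertical axis) for the 46 members, with 95% counting intervals as bars. All 14 core genes lie below 0 on the vertical axis, between -0.31 and -0.18, and within -0.02 to 0.20 on the horizontal axis.

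Splicing of the members was read from the percent spliced in (PSI), the share of a gene's transcripts in which an exon or site is used. The tables list 218 events in 44 member symbols, Psmb9 among them. Of these, 193 events in 43 symbols had a PSI in all libraries and were scored LOW or better for coverage in 3 libraries or more, which in the tables of splice sites stands for 20 junction reads or more. Of the 193, 179 (92.7%) differed by under 5 PSI in every comparison. Knockdown changed 3 events by 15 PSI or more in vehicle and 3 in Dex, where 1.95% and 1.52% of all 57220 events were changed. Dex changed 0 of 193 in siControl and 0 in siArglu1, where the shares were 0.718% and 0.947%. The events lie in Psma3, which encodes an alpha subunit, and in Psmb10.

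In Psma3, the events are neighbouring exons of 47 and 68 bases. The 68-base exon, at chr12:72094000-72094067 in the authors' build mm9, had a PSI of 31.25 and 21.05 with siControl against 3.23 and 1.30 with siArglu1. Coverage was scored VLOW, LOW, OK and OK in that order, so the siControl values are the least certain. By the lengths of the exon, its neighbours and both introns, it is exon 9 of the 11 exons of a protein-coding transcript in GENCODE M21, at chr12:70993013-70993080 on the plus strand (GRCm38). It is coding throughout, and is given here in capitals with 20 bases of each neighbour.
Psma3: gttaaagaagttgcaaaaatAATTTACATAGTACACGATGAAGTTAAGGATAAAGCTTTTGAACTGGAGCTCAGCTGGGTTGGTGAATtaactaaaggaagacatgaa

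Its length leaves a remainder of 2 when divided by 3, so that leaving it out shifts the reading frame. The annotated transcript has 255 codons before its stop codon. Without the exon there would be 198, with a stop that begins after 4 bases of the next exon. Reads on the junction that skips the exon numbered 11 and 16 with siControl against 76 and 78 with siArglu1, so the siArglu1 libraries held more of them. The junction of the gene's first intron had 1144, 1147, 1297 and 1634 in the same order. Per 100 of these, skipping reads came to 0.962 (exact Poisson interval 0.48 to 1.72), 1.39 (0.797 to 2.27), 5.86 (4.62 to 7.33) and 4.77 (3.77 to 5.96), a 6.09-fold higher value with knockdown in vehicle (log2 ratio 2.61, interval 1.69 to 3.67) and 3.42-fold in Dex (1.77, 0.99 to 2.65).

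**Figure D5:**
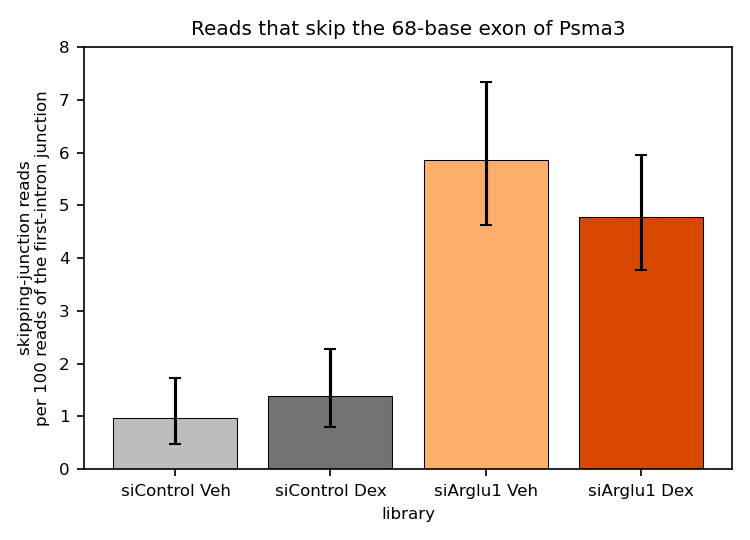
Reads on the junction that skips the 68-base exon of Psma3, per 100 reads on the junction of the gene's first intron, in each library. Bars start at 0 and error bars are exact 95% Poisson intervals of the skipping reads; both siArglu1 libraries lie above both siControl libraries.

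The PSI and the junction reads give different pictures of how common skipping is. A PSI of 1.30 to 3.23 would leave the exon out of nearly all transcripts, whereas skipping reads were 5.86 per 100 of the first intron at most. The 40 bases across the join into the exon, 20 on each side, are also found in annotated transcripts of 2 genes other than Psma3, and those across the join out of it in transcripts of 3, while those across the skipping join are in 0 annotated transcripts. How the authors' mapping treated reads that fit several places was not stated, and its part in the PSI was not tested. The 47-base exon had a PSI of 64.71 and 75 with siControl against 87.10 and 91.67 with siArglu1, and its score for reference junctions alone was N, under 10 reads by the splice site tables, in all libraries. Gene-level reads of Psma3 gave a cRPKM of 128.12 and 127.80 with siControl against 168.88 and 148.47 with siArglu1.

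In Psmb10, the event is a donor that extends an exon by 259 bases, at chr8:108460882 in mm9. Its PSI was 4.35 and 2.53 with siControl against 20.51 and 27.52 with siArglu1. Reads on all junctions of the event numbered 117, 122, 54 and 55. A second count, 4, 2, 10 and 13, was taken as the reads behind its score for reference junctions alone. The authors' data do not define this count, but its ranges match the words of that score. If it is read so, the PSI rests on few reads. The exon of 116 bases that both donors skip had a PSI of 97.81 and 99.01 with siControl against 94.29 and 93.69 with siArglu1. The difference was thus -3.52 in vehicle and -5.32 in Dex, under the threshold. In each library the exon's score was one that stands for 100 reads or more in the splice site tables. Psmb7, Psmb2 and the other members had no event past 15 PSI in any comparison.

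Junction reads also gave a second reading of the levels from the same libraries. For the 38 members with at least 100 junction reads in each library, the log2 ratio had the sign of the gene-level ratio for 35 in vehicle and 31 in Dex. The medians were 0.31 by junctions and 0.34 by reads on genes in vehicle, and 0.17 and 0.18 in Dex.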

How the data were processed

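Pools of 3 N2a cultures gave 1 polyA-enriched TruSeq V2 library per group. The authors deposited a count of reads per gene, not normalized, and an RPKM corrected for mappability (cRPKM). They also deposited tables in which PSI, a percent, comes from vast-tools with a coverage score in words. The submitters' processing notes name Bowtie and mm9, and give no version. Ratios that the authors had formed themselves were not used.

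Counts were scaled with TMM factors over all genes (edgeR 4.0.16, R 4.3.3) with a prior count of 1 before the log2 of CPM. Exact 95% intervals condition on the reads of both libraries. Mappable length was computed from reads and cRPKM, and its trend was taken with a lowess (statsmodels 0.14.6, span 0.3, 3 iterations). Sites of a splice site event counted as 1 event. Additive models were fitted with edgeR and DESeq2 1.42.0 as alternatives, with Benjamini-Hochberg adjustment. Scripts were tested on simulated data. Locations came from GENCODE M21, in which all 49 members were matched by Ensembl ID.

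Named members were those past a threshold, the paralogs of catalytic and alpha subunits, the highest and lowest of each class in the vehicle pair, and those with a changed event. The members, lists and tests were chosen with earlier results of these data known. Depth lay between 66074574 and 86541444 reads, intervals cover counting error only, and no pair has replicates.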

Additional observations from a re-analysis of the deposited data

Results flagged for a closer look

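The log2 ratio for Dex had a counting interval above 0 in siControl cells and below 0 in siArglu1 cells for 14 of 46 members, where 5.43% of all genes and 51 of the 79 ribosomal protein genes did the same. In the alpha subunits it was 0.066 and -0.23 for Psma1, 0.085 and -0.22 for Psma2, 0.041 and -0.20 for Psma4, 0.20 and -0.31 for Psma5, 0.085 and -0.21 for Psma6, 0.030 and -0.23 for Psma7. In the beta subunits it was 0.053 and -0.24 for Psmb1 and 0.061 and -0.26 for Psmb2. In the 19S particle it was 0.043 and -0.10 for Psmc2, 0.033 and -0.15 for Psmd12, 0.056 and -0.15 for Psmd4, 0.060 and -0.18 for Psmd6, 0.044 and -0.21 for Psmd8. In the activators it was 0.072 and -0.15 for Psme1. The first value of each is siControl. Their median with siControl was 0.06 as measured and 0.04 after the length trend was subtracted, and with siArglu1 it was -0.21 and -0.08. Psme1 then had 0.02 with siArglu1, above 0. Each direction rests on 1 library per arm and the difference was not tested.

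Psmb9 is a gene that the comparisons of levels do not use. Over its 2 splice site events, junction reads summed to 7 with vehicle and 8 with Dex in siControl cells. Both were above the limit of 3 that a count of 0 allows, and siArglu1 cells had 2 and 0.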

How the results depend on the processing

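The counts of 3 members changed by knockdown in vehicle and 2 in Dex stayed within 1.5 times under other scalings, prior counts, read minimums and the removal of the trend on length. A threshold of 0.5 gave 9 (7 higher, 2 lower) and 7 (4 higher, 3 lower). Additive models over the 4 libraries, with an adjusted p of 0.05, called 33 members (29 higher, 4 lower) with edgeR and 26 (23 higher, 3 lower) with DESeq2, where they called 32.5% of all genes higher and 29.7% lower and 22.9% higher and 25.2% lower. They assume that knockdown and Dex add up, and leave 1 residual degree of freedom. With no minimum on reads, 1 member counted as changed by Dex in siControl, Psme2b with its 1 read. The medians of the 20S core and the 19S particle for knockdown in vehicle were 0.398 and 0.273 with total reads only and likewise with log2(cRPKM + 0.1), and 0.127 and 0.134 with the trend on length removed, which gave 0.011 and 0.072 in Dex. All kept their sign. The 3 splicing events changed in vehicle and 3 in Dex became 1 and 0 at 25 PSI, 8 and 11 with no minimum on coverage, and 1 and 1 with OK coverage in all libraries, which leaves both Psma3 exons out. TMM factors over the genes with 75 or more reads, and junction reads, were added after the data were seen. With 1 library per group no library can be left out of a pair, and no paired analysis was possible because the labels number no replicates and each group has 1 library. Depth limits Psmb9, Psmb11 and Psme2, and short mappable length limits Psmb3, Psme2 and Psma5.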

Other observations

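The chaperonin, a ring complex that folds actin and tubulin, and the ribosome give other large assemblies to set beside the proteasome. The 8 chaperonin genes had a median log2 ratio of 0.09 for knockdown in vehicle and -0.06 in Dex, and none was called. Cct2 had the highest ratio, 0.73 in vehicle and 0.59 in Dex, with 57710 reads and 64539 with siControl against 93289 and 117391 with siArglu1. Of the 79 ribosomal protein genes, 74 lay above 0 in vehicle and 48 in Dex, and 1 was called higher in each pair. For Dex in siArglu1, 75 of the 79 lay below 0 with a median of -0.20, and all 8 chaperonin genes lay below 0 with a median of -0.11, beside -0.23 in the 20S core.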
